A study of Drosophila melanogaster with 3 samples.

Results

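The genes described here are 10 germline and translational repressor genes of Drosophila melanogaster: pum, nos, cup, orb, osk, vas, stau, grk, piwi and aub. They were chosen by name, for the known roles of their products, out of 13968 protein-coding genes, and their coordinates are those of the dm6 gene models. Earlier results of these data were known when they were chosen, so the shares given for them describe a chosen set. Every Pipsqueak summit inside a gene or within 1 kb of either end was assigned to it, and a gene with such a summit is called bound. Of the 10 genes, 7 were bound, with 21 summits in 16 separate regions, and 13 of the 21 summits lay at pum. Bound genes made up 37.4% of all protein-coding genes. The genes osk, aub and grk had no summit.

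The summits come from chromatin immunoprecipitation and sequencing of Pipsqueak tagged with eGFP, precipitated with an antibody against GFP. The material was whole wandering larvae of the third instar, males and females pooled, from a transgenic line that stably expresses psq with GFP at its C terminus. All 3 samples are biological replicates of 1 group, with no other genotype or treatment, so nothing was compared between conditions. The authors deposited a reproducible list of 9459 entries (the optimal list), a pooled list and 1 list per replicate, each entry with a summit and a signal value whose scale is not stated.

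Pipsqueak is a BTB-domain protein that binds GAGA-like DNA, and psq was first known as a gene of the posterior group, needed during oogenesis. The genes described here act in placing and controlling maternal mRNAs and in germ cells: Oskar assembles the germ plasm, Vasa and the Argonaute proteins Piwi and Aubergine act in the germline, and Nanos with Pumilio blocks translation of target mRNAs. Several also act outside the germline, Pumilio and Staufen in neurons among them. Whole larvae contain gonads and far more somatic tissue, so binding in the germline and binding in the soma cannot be told apart here, and peak lists hold no expression values against which the tissue could be checked.

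The DNA under the pum summits is shown first, since pum held most of the summits. The windows are those of the strongest summit and of 5 of the 6 pum summits with GAGAG. The other, summit 13, lay 10 bp from a start site of pum and is not shown. It had GAGAGAG in its window, and its nearest GAGAG was centred 3 bp away. Each window reaches 50 bp to each side of the summit, 101 bp in all, and is read 5′ to 3′ on the plus strand of the release 6 genome from NCBI RefSeq, while pum itself runs on the minus strand. Capitals mark GAGAG on either strand, so CTCTC is marked too, and summits are numbered along the arm.
pum summit 2, chr3R:9147650-9147750: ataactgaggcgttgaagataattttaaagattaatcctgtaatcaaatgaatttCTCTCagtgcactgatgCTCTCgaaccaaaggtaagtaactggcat
pum summit 3, chr3R:9220516-9220616: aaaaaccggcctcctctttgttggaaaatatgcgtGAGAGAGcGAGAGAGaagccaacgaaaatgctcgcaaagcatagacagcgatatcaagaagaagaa
pum summit 6, chr3R:9227009-9227109: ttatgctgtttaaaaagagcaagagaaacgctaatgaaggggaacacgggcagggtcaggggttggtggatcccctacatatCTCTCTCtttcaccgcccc
pum summit 7, chr3R:9227213-9227313: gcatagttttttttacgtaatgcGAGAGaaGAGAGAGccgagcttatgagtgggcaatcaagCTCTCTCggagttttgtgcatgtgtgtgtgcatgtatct
pum summit 8, chr3R:9229254-9229354: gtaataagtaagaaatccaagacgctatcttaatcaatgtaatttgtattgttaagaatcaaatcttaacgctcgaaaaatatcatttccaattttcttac
pum summit 9, chr3R:9229465-9229565: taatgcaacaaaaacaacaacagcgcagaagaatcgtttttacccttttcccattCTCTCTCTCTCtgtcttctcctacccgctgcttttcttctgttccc
Summit 8, the strongest, had no GAGAG in its window, and the nearest copy lay 218 bp away. Its base composition was 26.7% G and C. Summit 9, its neighbour at 211 bp, had a run of CTCTC repeats whose nearest copy was centred 7 bp from the summit. Summit 3 had 2 blocks of GAGAGAG, and its nearest GAGAG was centred 3 bp away. Summits 6 and 7 also had GAGAGAG in their windows, and their nearest GAGAG was centred 34 and 14 bp away. Summit 2, which lies far inside the gene, had CTCTC at 7 bp but no longer run.

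Pumilio is an RNA-binding translational repressor and the founding member of the PUF family. Its gene, FBgn0003165, spans 171340 bp on 3R, from 9066343 to 9237682 on the minus strand, and has 4 annotated start sites. Of the 13 pum summits, 11 (84.6%) lay within the first 20 kb after the first start site. The other summits lay in introns 90 and 102 kb downstream. No summit lay past that point, in the last part of the gene. The 13 summits fell into 8 separate regions, because summits 3 and 4, summits 6 and 7, summits 8 and 9 and summits 11 to 13 lay in shared entries.

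**Figure D1:**
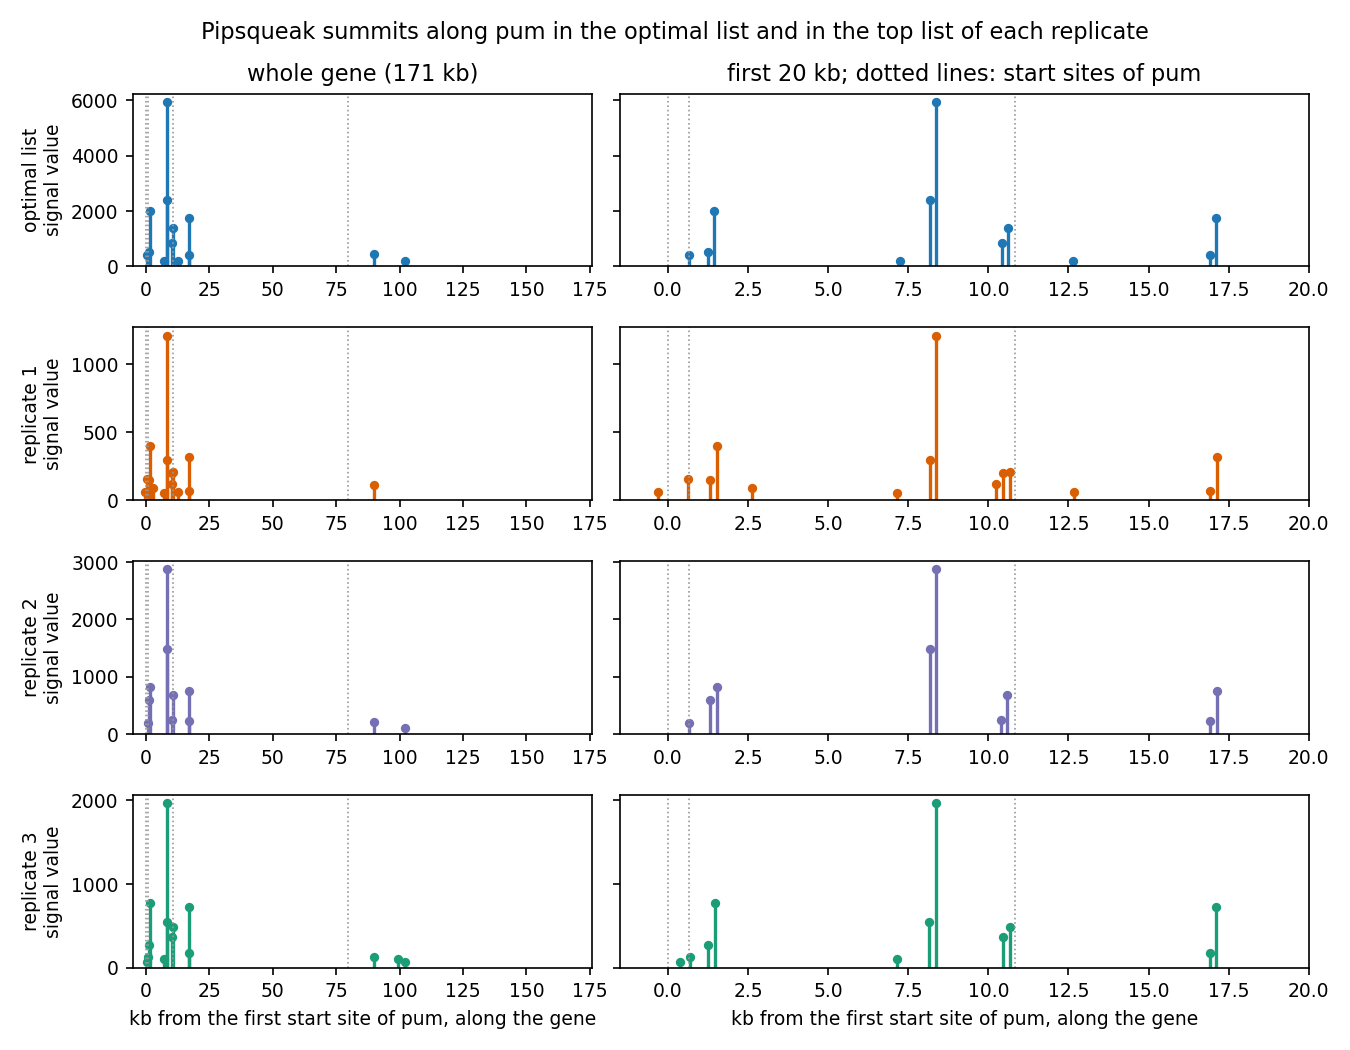
Signal values (vertical axes, each list on its own scale) of Pipsqueak summits along pum against the distance in kb from its first start site (horizontal axes), for the optimal list and for the 9459 strongest entries of each replicate, with the whole gene on the left and the first 20 kb on the right. In every list the highest line stands at 8.38 kb or within 22 bp of it, and most summits lie in the first 20 kb.

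Summit 8 at 9229304 was the strongest of the 21, with a signal of 5947 and rank 13 of the 9459 optimal entries. In the replicate lists it had a signal of 1210 and rank 23 in replicate 1, 2873 and rank 9 in replicate 2, and 1966 and rank 17 in replicate 3. It was therefore among the strongest entries of every replicate, although signal values of different lists are not on a common scale. It lies in an intron of pum and also within lncRNA:CR45196, a noncoding gene inside pum, at 1171 bp from the start of that gene. The nearest start site of pum, at 9226840, was 2464 bp away, so this summit was not at a promoter of pum. Its neighbour, summit 9, had a signal of 2403 and lay on an exon of the same noncoding RNA. The ranks of summit 9 spread more, with 833, 72 and 456 in replicates 1, 2 and 3.

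The summits nearest to start sites of pum were weaker than summit 8. Summit 13 lay 10 bp from the start site at 9237025, had a signal of 418 and ranked 2374, 3951 and 4532 in replicates 1, 2 and 3. Summits 6 and 7 lay 219 and 423 bp upstream of the start site at 9226840, with signals of 1404 and 858. Summit 6 ranked 1565, 490 and 584 in the 3 replicates, and summit 7 ranked 1718, 2959 and 976. The first start site, 647 bp from summit 13, and the fourth, 79732 bp into the gene, had no summit within 500 bp. Among pum summits, 3 of 13 were thus within 500 bp of a start site of the gene, and none of the 13 was within 500 bp of the start of another gene.

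Other strong pum summits lay in introns. Summit 11 at 9236234 had a signal of 2009, 791 bp into the gene from the second start site, and ranked 481, 348 and 221 in replicates 1, 2 and 3. Summit 3 at 9220566 had a signal of 1753, 6274 bp from the nearest start site of pum, and ranked 724, 410 and 256. Summit 12, at 583 bp from the same start site as summit 11, and summit 4 had signals of 512 and 414. Summit 2 at 9147700, 10250 bp past the fourth start site, had a signal of 447 and ranked 3709, 3595 and 4253. Summit 4 ranked 6931, 2984 and 2941, and summit 12 ranked 2508, 671 and 1618. All 5 of these summits were within the strongest 9459 entries of every replicate.

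The 3 weakest pum summits were near the lower end of the optimal list, whose lowest signal was 191. Summit 1 at 9135406 had a signal of 211, summit 10 a signal of 210 and summit 5 a signal of 200. Each missed the strongest 9459 entries of at least 1 replicate. Summit 1 ranked 13271 in replicate 1, and summit 10 ranked 10091 in replicate 2. Summit 5 ranked 19365 and 11257 in replicates 2 and 3.

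**Figure D2:**
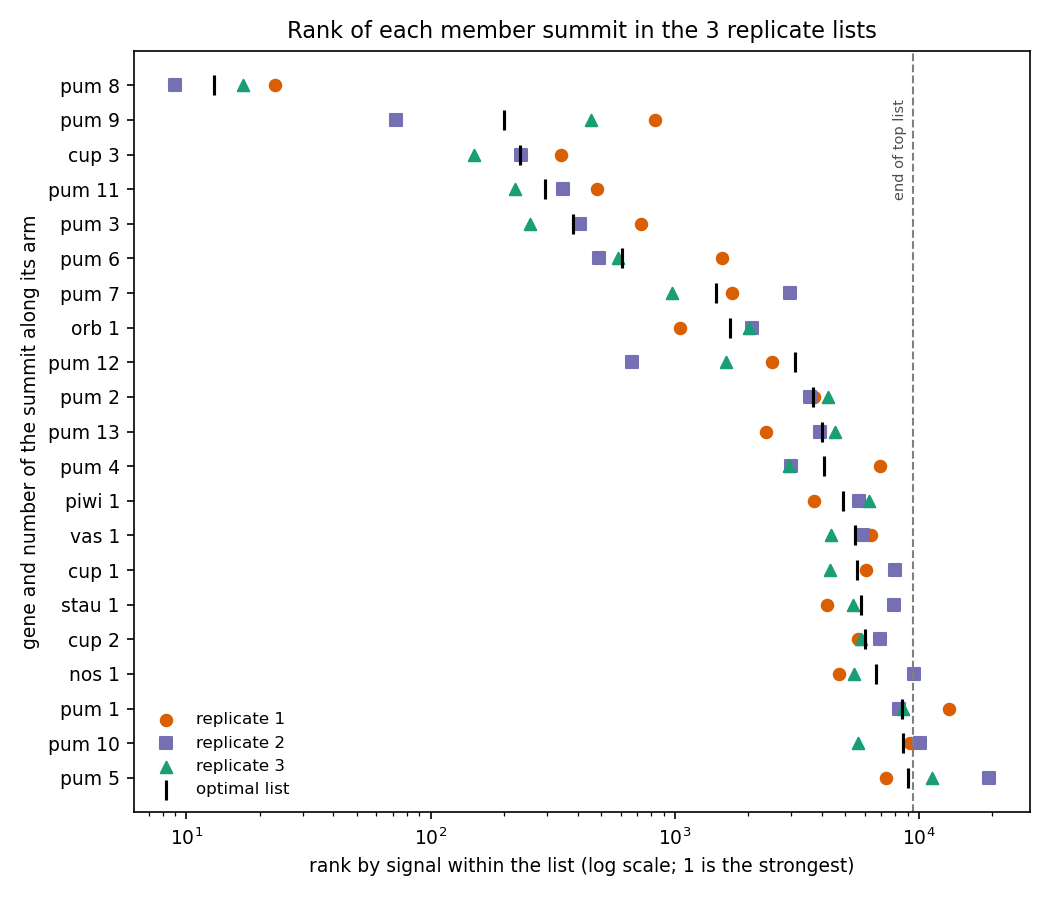
Rank by signal (horizontal axis, log scale, 1 is the strongest) of each of the 21 summits in the optimal list and in the lists of replicates 1 to 3, with the summits ordered down the page by optimal rank and the dashed line at rank 9459. Strong summits such as pum 8 (ranks 23, 9 and 17) stay far to the left in every replicate, and the points right of the line belong to nos 1, pum 1, pum 10 and pum 5.

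By number of summits pum held place 55 among protein-coding genes, and 69 genes had at least 13. Bound genes had a median of 1.00 summit and a 90th percentile of 4, with 43 at most. The genes next to pum in this order were CG12535 and Antp, a Hox gene, with 14 each, and HmgD and simj, among the genes tied with pum at 13. These genes are shorter than pum. Per kb of gene and flanks, pum had 0.0750 summits, against 0.222 at CG12535, 0.133 at Antp, 0.753 at HmgD and 0.464 at simj. By strongest signal pum held place 12, after upSET (6371) and CG32772 (6057) and before CG3726 (5708) and CG11050 (5354). Genes of like length, 0.8 to 1.25 times the span of pum, numbered 24 besides pum. Of these, 17 (70.8%) were bound, and their median was 2.50 summits. In pum 11 of 13 summits (84.6%) lay in the first 20 kb, against 28 of 115 summits (24.3%) in these genes. Overlapping entries were not merged on either side, and a summit assigned to more than 1 of these genes was counted once. The 20 kb cut falls in the wide gap between pum summits 3 and 2. It therefore fits the grouping of summits at pum, so the contrast is descriptive and was not tested. The share in the first 20 kb varied widely by gene: of the 17 bound genes, 5 had all of their summits there and 5 had none. The 5 with all were CG15465, rg, CG34353, Lar and bru1. Of these, CG15465 and rg had the same length, 169106 bp, and the same 4 summits, so they are not separate cases. The genes CG34353, Lar and bru1 had 1 summit each. Among the 10 genes with at least 5 summits, the share ran from 0.0 to 69.2%. Of the genes of like length, Mur2B had 22 summits, 1 of them in the first 20 kb. The genes heph and mgl had 13 each, with 9 of the mgl summits in the first 20 kb.

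**Figure D3:**
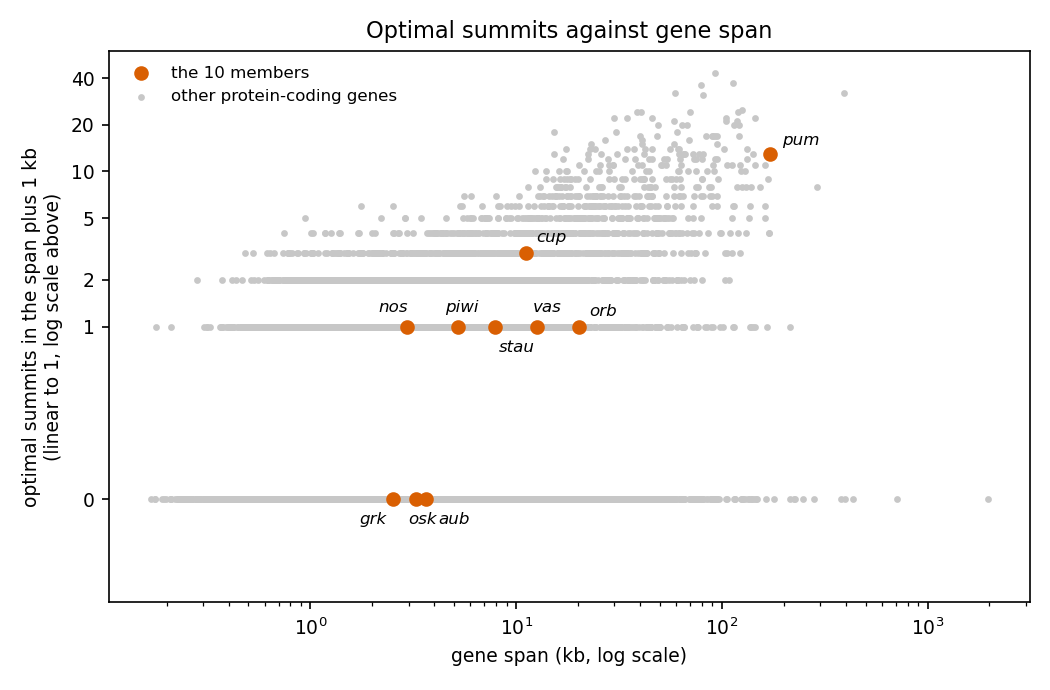
Number of optimal summits within each gene plus 1 kb (vertical axis, linear up to 1 and logarithmic above) against the span of the gene (kb, log scale), with the 10 genes in orange and all other protein-coding genes in grey. The highest of the 10 is pum with 13 summits, cup has 3, and the 3 genes at 0 are grk, osk and aub, which with nos are the shortest of the 10.

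Nanos is the partner of Pumilio in repressing hunchback mRNA and is made at the posterior pole. Its gene, FBgn0002962, on 3R from 19157238 to 19160202 on the plus strand, had 1 summit, at 19156858. The summit lay outside the gene, 380 bp upstream of its start, and 46 bp from the start of CG11779, a gene on the other strand that overlaps nos, in whose 5′ UTR it fell. Its signal was 270, the lowest among the summits of genes other than pum. It ranked 4685 in replicate 1, 9572 in replicate 2 and 5406 in replicate 3, so it missed the strongest 9459 entries of replicate 2 by a small margin. No GAGAG lay within 50 bp, and the nearest was 764 bp away.

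Cup binds eIF4E and represses translation of oskar and nanos mRNA. Its gene, FBgn0000392, on 2L from 6663664 to 6674780 on the plus strand, had 3 summits. The strongest, at 6673267, had a signal of 2266 and optimal rank 232, and in replicates 1, 2 and 3 it had signals of 456, 977 and 912 and ranks of 343, 235 and 150. This summit was 9299 bp from the nearest start site of cup and 80 bp from that of Spn27A, a serpin gene nested in cup, in whose 5′ UTR it fell. It had GAGAGAG within 50 bp and was the only summit outside pum that did, the nearest GAGAG being centred 19 bp away. The second, at 6668073, had a signal of 296 and lay 40 bp from the start of Galt. It ranked 5652, 6896 and 5781 in replicates 1, 2 and 3. The remaining one, at 6663893, had a signal of 317 and lay 75 bp from a start site of cup that CG34310, annotated over the same stretch, shares. It ranked 6049, 8011 and 4309. The strongest binding within cup was thus at the start of another gene.

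Orb is a CPEB-family protein that promotes translation of localised mRNAs, oskar and gurken among them. Its gene, FBgn0004882, spans 20247 bp on 3R, from 23260610 to 23280856 on the minus strand, with 4 start sites. The single summit lay outside the gene, 224 bp upstream of the first start site, and 121 bp from the start of Cdc16, which begins on the other side. Its signal was 793, optimal rank 1684. In replicates 1, 2 and 3 it had signals of 262, 306 and 231 and ranks of 1055, 2080 and 2023. Outside pum, the cup summit at Spn27A was the only one with a higher signal.

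The start sites between orb and Cdc16 and between piwi and CG12253 lie close together, and both intervals held a summit in DNA with few G and C bases and no GAGAG. These windows are shown because they contrast with the CTCTC-bearing pum windows above. They follow the same layout, release 6 genome and plus strand.
piwi summit 1, chr2L:10987588-10987688: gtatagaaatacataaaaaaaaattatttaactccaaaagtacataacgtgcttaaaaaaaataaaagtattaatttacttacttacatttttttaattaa
orb summit 1, chr3R:23281030-23281130: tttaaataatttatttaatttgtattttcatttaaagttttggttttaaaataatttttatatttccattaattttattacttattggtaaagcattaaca
The windows contained 12.9% G and C at orb and 15.8% at piwi, against a median of 37.6% over all optimal summits, whose range was 6.93 to 72.3%. These windows are not typical of the summits outside pum, whose median was 47.0%. Apart from orb and piwi, the summits outside pum had 42.6 to 56.4% G and C. The nearest GAGAG was 153 bp away at orb and 894 bp away at piwi.

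Piwi and Aubergine are Argonaute proteins that load piRNAs, small RNAs that silence transposons, Piwi in the nucleus and Aubergine in the cytoplasm of germ cells. The piwi gene, FBgn0004872, on 2L from 10982205 to 10987420 on the minus strand, had 1 summit at 10987638. The summit lay 218 bp upstream of the start of piwi and 168 bp from the start of CG12253. Its signal of 354 was close to the median of all optimal entries, and it ranked 3726, 5671 and 6261 in replicates 1, 2 and 3. The aub gene, FBgn0000146, on 2L from 10997819 to 11001476, had none, and the nearest optimal summit, at 11004158, was 2682 bp from the gene. In the pooled list the strongest aub entry had a signal of 51.8, rank 28850 and an authors' q-value of 0.447. Replicates 1 and 3 had entries at ranks 26296 and 22017, and replicate 2 had none among its 30000 entries. No aub entry of any list had a q-value of 0.01 or lower.

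Oskar is the organiser of the germ plasm. Its gene, FBgn0003015, on 3R from 8935126 to 8938395 on the plus strand, had no optimal summit, and the nearest, at 8932186 with a signal of 448, was 2940 bp away. The pooled list held an entry at 8938892, past the 3′ end, with a signal of 179, rank 10111 and an authors' q-value of 0.000148, just below the weakest optimal entry at 191. That entry was 134 bp from the start of ScsbetaA and 3766 bp from that of osk. In replicate 1 the corresponding entry ranked 7710, within the strongest 9459, and in replicates 2 and 3 it ranked 12480 and 9743. The strongest entry assigned to osk was thus just outside the optimal list and lay at the start of the neighbouring gene.

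Vasa is a DEAD-box RNA helicase of the germ plasm, and psq mutations are known to alter its level in the ovary. The vas gene, FBgn0283442, spans 12656 bp on 2L, from 15061656 to 15074311 on the plus strand. Its summit at 15068001 had a signal of 322 and ranked 6348, 5903 and 4373 in replicates 1, 2 and 3. It lay 6345 bp downstream of the start of vas and 77 bp from the start of vig, a gene nested in vas on the other strand, in the 5′ UTR of vig. It also lay within solo, which is annotated from the same start site as vas. No optimal summit was within 500 bp of the vas start site. The nearest GAGAG to this summit was centred 55 bp away, just outside the window.

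Gurken is a TGF-alpha-like ligand of the EGF receptor that sets the axes of the oocyte. The grk gene, FBgn0001137, on 2L from 8431086 to 8433598, had no optimal summit, and the nearest lay 3764 bp away at 8437362. Its strongest pooled entry had a signal of 91.7, rank 18199 and an authors' q-value of 0.0732. In replicates 1, 2 and 3 the strongest entries ranked 18246, 16933 and 22366, so none reached the strongest 9459, and none had a q-value of 0.01 or lower.

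Staufen is a double-stranded RNA-binding protein that localises oskar and bicoid mRNA. The stau gene, FBgn0003520, on 2R from 18117896 to 18125779 on the minus strand, had 1 summit at 18125870. The summit lay 91 bp upstream of the first stau start site and 477 bp from the start of Spn55B. Its signal was 306, below the median of all optimal entries, and it ranked 4196, 7934 and 5349 in replicates 1, 2 and 3. Among the genes other than pum, only cup had a summit nearer to a start site of its own.

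**Figure D4:**
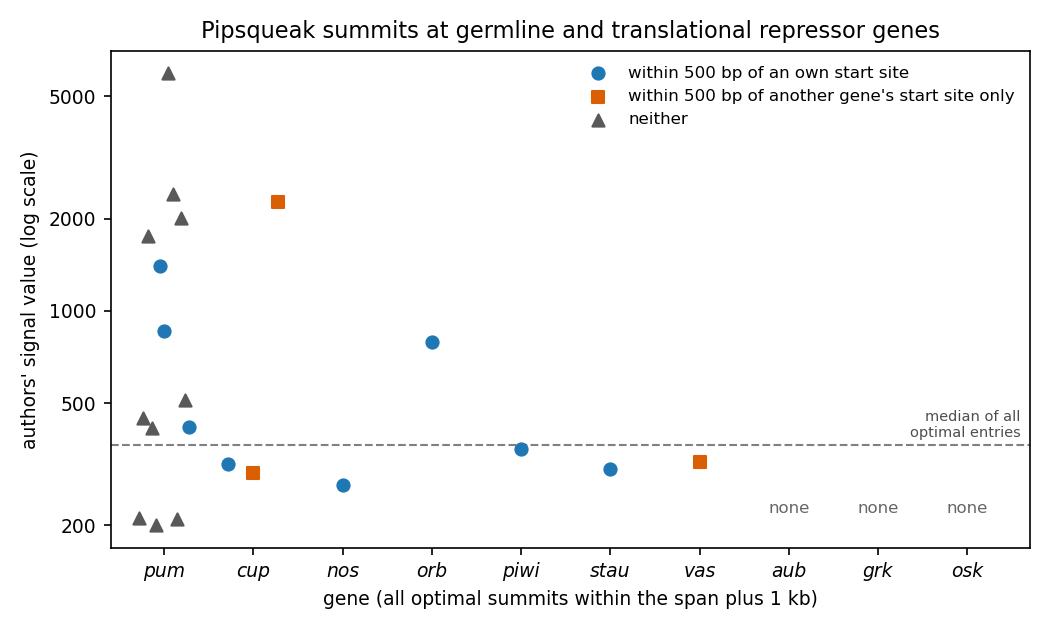
Authors' signal value (log scale) of every optimal summit within each gene plus 1 kb, by gene, with circles for summits within 500 bp of a start site of that gene, squares for those within 500 bp of another gene's start only, and triangles for neither. Triangles occur at pum only, where they include the highest value, 5947. The dashed line is the median of all optimal entries, 365.

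Of the whole set, 6 of the 10 genes had a summit within 500 bp of a start site of their own, against 27.4% of all protein-coding genes. These were pum, nos, cup, orb, piwi and stau. Of the 21 summits, 8 were at a start site of their own gene, and 5 of those 8 were also within 500 bp of the start of another gene. Another 3 lay only at the start of another gene, namely vig, Galt and Spn27A. In all, 11 of 21 summits (52.4%) were within 500 bp of some start site, against 43.4% of all optimal summits. All 8 summits outside pum were, but only 3 of 13 at pum. The start of another gene was nearer than that of the gene itself for 9 of the 21 summits, so distance alone often did not tie a summit to 1 gene. When summits in the 1 kb flanks were left out, 3 of the 10 genes (vas, cup and pum) were bound, against 17.0% of all protein-coding genes.

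**Figure D5:**
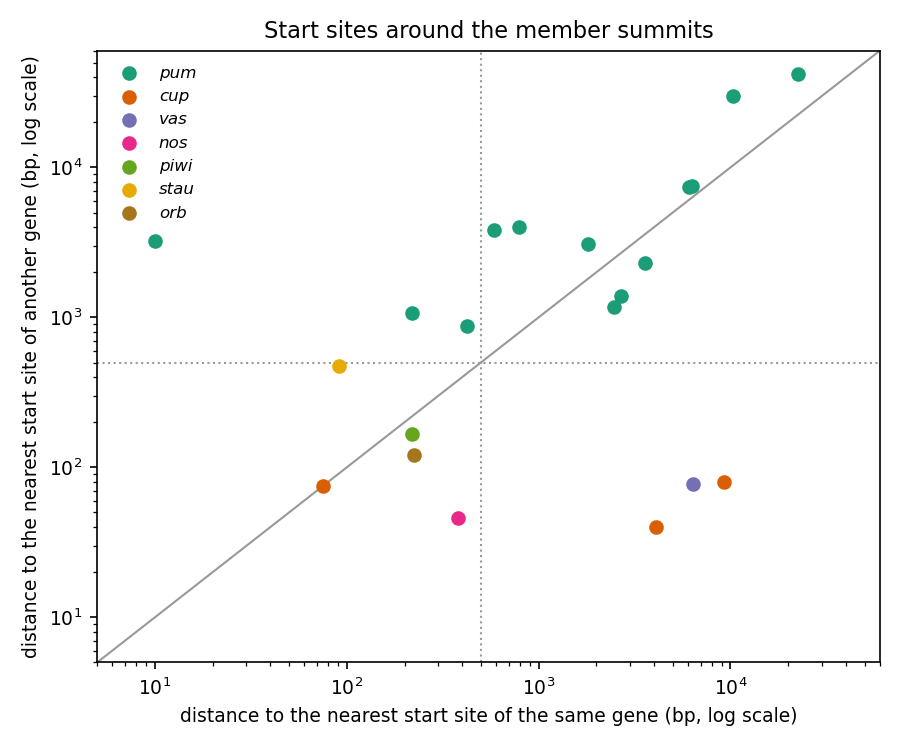
Distance from each of the 21 summits to the nearest start site of another gene (vertical axis, bp, log scale) against the distance to the nearest start site of the gene it was assigned to (horizontal axis, bp, log scale), with dotted lines at 500 bp and a solid line where both are equal. The 8 summits outside pum lie below the upper dotted line, and 3 of them (at vas and cup) lie at the lower right, near another gene's start only.

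The median signal was 418 over the 21 summits, 512 at pum and 319 at the other 6 bound genes, against 365 over all optimal entries. Bound genes in general had a median strongest signal of 462. The genes nos, piwi, stau and vas were below that value, and pum, cup and orb were above it, cup through its summit at Spn27A.

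In all 3 replicates, 17 of the 21 summits (81.0%) were overlapped by the strongest 9459 entries, against 80.7% of all optimal summits. The exceptions were nos summit 1 and pum summits 1, 5 and 10. By replicate the count was 20, 18 and 20 of 21 for replicates 1, 2 and 3. The number of top-list summits assigned to the 10 genes in those lists was 26, 20 and 25, a mean of 23.7 ± 3.21 (SD, n = 3). At pum it was 15, 11 and 14 (13.3 ± 2.08), and at cup it was 4 in every replicate. At osk it was 1, 0 and 0, and at aub and grk it was 0 in every replicate. The optimal list was made from these replicates, so the share of 81.0% describes agreement and is not an independent check. Overlap was scored by entry, so summits that share an entry had the same call.

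The motifs searched, on both strands within 50 bp of the summit, were the pentamer GAGAG, the longer GAGAGAG (which contains the pentamer) and the palindrome TATCGATA. GAGAG was present at 7 of the 21 summits (33.3%), against 17.0% of all optimal summits. GAGAGAG was present at 6 of 21 (28.6%), against 4.31%, and TATCGATA at 0 of 21, against 1.14%. Within the set, 6 of 13 pum summits (46.2%) had GAGAG and 5 (38.5%) had GAGAGAG, while 1 of the 8 other summits (12.5%) had either, the cup summit at Spn27A. The median distance to the nearest GAGAG was 72.0 bp for the 21 summits, 52.0 bp at pum and 250 bp elsewhere, against 183 bp for all optimal summits. The pum summits are neighbours within 1 gene and share entries, so they are not independent sites, and no test was made of these shares. With 1 entry per set of overlapping entries, GAGAG was present at 4 of 16 summits, against 15.9% of all entries so reduced.

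Related genes of the same processes give the setting. Of 65 genes in 5 lists, 40 (61.5%) were bound, against 37.4% of all protein-coding genes. The lists were chosen with earlier results of these data known, and their genes were not matched for length. A summit within 500 bp of an own start site was present at 27 of the 65 genes, against 3828 of the 13968 protein-coding genes (27.4%). Among genes for the control of oskar, nanos and gurken mRNA, 13 of 17 (76.5%) were bound. There, twin, a deadenylase subunit gene, had a summit of 2980 at 3 bp from its start and 274 bp from that of cav. Imp had 10 summits up to 1629, and Hrb27C had 1004. Of the partners and targets of Nanos and Pumilio, 4 of 6 (66.7%) were bound. They included brat, which encodes the corepressor of Nanos and Pumilio, with 22 summits up to 4164, CycB with 1254 and mei-P26 with 364. The strongest brat summit lay 2973 bp from a start site of brat and 1556 bp from that of Polr1D.

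Of the germ plasm and posterior group genes, 9 of 14 (64.3%) were bound, led by exu (1417), capu (867) and swa (809). The strongest exu summit lay 3896 bp from the start of exu and 711 bp from that of Fem-1. At swa it lay 804 bp from the start of swa and 563 bp from that of Marf. Of the genes of germline sex and stem cell regulation, 5 of 9 (55.6%) were bound, led by ovo (2389), Sxl (668) and dpp (572). The piRNA pathway had the lowest share, 9 of 19 (47.4%), and 4 of the 19 had a summit at a start site of their own. Its strongest summits were at papi (2254), at Hen1 (969), where the summit was 206 bp from the start of bsd, and at cuff (603). The cuff summit was 315 bp from the start of cuff and 167 bp from that of CG13185. The share of bound genes also differed with gene length. Among protein-coding genes of like span it was 37.5% for grk, 40.4% for nos, 42.4% for osk and 44.8% for aub, and 49.3% for piwi, 55.9% for stau, 58.1% for cup, 59.8% for vas and 67.2% for orb. The unbound osk, aub and grk, and the bound nos and piwi, are thus of a length at which most genes were not bound.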

How the data were processed

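Text files that came with the samples say that peaks and background were called against a control, per replicate and pooled, and passed through an irreproducible discovery rate step whose result is the optimal list. The signal value of an entry is the authors' score, deposited with no stated scale, and was used to rank and describe entries within a list. The −log10 q-value is the authors' deposited value. The sources used here do not give the aligner, the caller or the threshold. The lists on dm3 and the control were not analysed here. Per the labels, chromatin was sonicated to fragments of 200 to 800 bp. The optimal list equalled the 9459 strongest pooled entries, and each replicate list of 30000 entries was reduced to its own 9459 strongest (the top list). The q-value was 0.01 or lower for 9925, 16596 and 14879 entries in replicates 1, 2 and 3. Read depth is unknown, since no read counts were given, so no counting interval was given, and no p-value was computed. SDs are over the 3 replicates.

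Summits were set against Ensembl release 115 gene models without transposable elements, with the release 6 genome, in Python 3.11.15 with numpy 2.4.6 and pandas 2.3.3, and figures used matplotlib 3.10.9. The gene nos was matched as nanos, since that symbol is also a synonym of the nitric oxide synthase gene. Of 66 related genes, os was not matched. Overlap means at least 1 bp, and a start site means any annotated transcript start of the gene. The scripts were tested on simulated summits. The 10 genes and the lists were chosen with earlier results of these data known. The genes named are the 10, any gene that holds one of their summits or starts near it, the neighbours of pum in each order, and some genes of like length to pum. Also named are the 3 bound genes of each list with the strongest summit, and some genes that start near those summits.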

Additional observations from a re-analysis of the deposited data

How the results depend on the processing

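Of 37 alternative values over 8 results, 27 kept within 1.5 times of the reported one. Without the 1 kb window, 3 of the 10 genes (vas, cup and pum) and 25 related genes were bound, against 17.0% of all protein-coding genes, because the summits of nos, piwi, stau and orb lie outside their genes. With a 5 kb window all 10 were bound, against 58.2%. With the stronger 50% of the optimal entries, 3 genes (pum, cup and orb) kept 12 summits, against 23.3% of all genes bound. With 1 entry per set of overlapping entries, pum had 8 summits, and GAGAG was present at 4 of 16 summits, against 15.9% of all entries so reduced. The pooled list down to a q-value of 0.01 gave 35 summits, 21 of them at pum, and added osk, so that 8 of the 10 genes were bound, against 47.0% of all genes. GAGAG within 100 bp was present at 12 of 21 summits, against 31.6% of all optimal summits. Top lists of 50% of the size gave a mean of 14.0 summits per replicate. Leaving out each replicate gave 17 to 19 shared summits and means of 22.5 to 25.5. RefSeq gene models gave the same 7 bound genes and 21 summits.

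The precision is limited by 3 replicates of 1 group and an unknown depth. Neighbouring summits in the optimal list are at least 199 bp apart, and its 1760 gaps of at most 300 bp have a median of 204 bp, so the 4 pum pairs at 204 to 212 bp stand at the spacing common in the list, and whether they are separate sites was not tested. Signal values of different lists were not compared, except between the pooled and optimal lists, since the optimal list equalled the strongest pooled entries. No paired analysis was possible because there is 1 group.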
